A study of Mus musculus with 4 samples.

Results

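The genes described here are 56 genes of mitosis, the spindle and the kinetochore, chosen by name from a list, with no measured value in the rule, though earlier results of these data were known when the list was made. All 56 were found among the 32227 genes counted in each library. They were measured by single-cell RNA sequencing in epithelial cells dissociated from the gastric corpus of wild-type C57BL6/J mice 6 to 7 weeks old, in 4 libraries. In 3 libraries the mice had been given L635, a drug that kills the acid-secreting parietal cells, as 1 oral dose of 350 mg/kg. One was taken at day 1 after L635, the next at day 3 after L635 with AREG, and the last at day 3 after L635 alone. AREG is amphiregulin, which binds and activates the EGF receptor. How much of it was given, how and when is not stated in the labels. The untreated mice had received PBS. Dissociation used TrypLE with the compound Y27632, and 25000 cells were loaded per PIPseq capture. The number of mice behind each library is not stated there either.

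In mitosis, Cdk1 bound to A- and B-type cyclins drives entry, condensin and topoisomerase compact the chromosomes, and the spindle attaches to each chromosome at its kinetochore. The spindle checkpoint holds the anaphase-promoting complex until every kinetochore is attached. That complex then marks securin and the cyclins for destruction, and the central spindle directs the cut between the daughter cells. Transcripts of most of these genes build up in G2 and M phase. In the gastric corpus the cells that divide lie mainly in the isthmus of the gland, between the pit cells of the surface and the neck, parietal and chief cells below, and parietal cells do not divide.

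Promoter sequences are shown for 4 members on which the results below turn: Racgap1, with the largest day 1 ratio, Ccnb2, with the largest AREG ratio, Cdc20, which differed least at day 1, and Pttg1, which went against the other members. They come from RefSeq (build GRCm38.p6) and run from 250 bases before the annotated start to 50 bases after it, on the strand of the gene. Capitals mark TTTGAA, the cell cycle homology region bound by the DREAM and MuvB complexes of G2/M genes, and CCAAT, the NF-Y box, each searched on both strands.
Racgap1, chr15:99651607-99651906, minus strand: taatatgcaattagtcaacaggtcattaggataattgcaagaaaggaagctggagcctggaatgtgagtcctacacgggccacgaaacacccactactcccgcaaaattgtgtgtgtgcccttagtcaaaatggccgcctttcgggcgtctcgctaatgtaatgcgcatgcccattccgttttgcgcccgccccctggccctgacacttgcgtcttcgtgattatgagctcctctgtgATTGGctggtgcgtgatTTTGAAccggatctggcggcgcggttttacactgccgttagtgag
Ccnb2, chr9:70421505-70421804, minus strand: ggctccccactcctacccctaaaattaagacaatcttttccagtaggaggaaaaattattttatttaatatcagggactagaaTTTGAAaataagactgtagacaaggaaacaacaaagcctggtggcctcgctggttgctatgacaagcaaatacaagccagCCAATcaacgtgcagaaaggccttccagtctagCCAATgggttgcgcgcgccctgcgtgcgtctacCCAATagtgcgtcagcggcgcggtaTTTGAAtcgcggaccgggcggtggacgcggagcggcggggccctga
Cdc20, chr4:118437294-118437593, minus strand: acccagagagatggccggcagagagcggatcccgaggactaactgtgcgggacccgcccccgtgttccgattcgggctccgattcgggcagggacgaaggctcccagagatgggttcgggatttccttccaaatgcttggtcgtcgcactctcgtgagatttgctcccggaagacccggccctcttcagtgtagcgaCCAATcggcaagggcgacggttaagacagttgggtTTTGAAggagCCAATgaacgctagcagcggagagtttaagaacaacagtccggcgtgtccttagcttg
Pttg1, chr11:43425932-43426231, minus strand: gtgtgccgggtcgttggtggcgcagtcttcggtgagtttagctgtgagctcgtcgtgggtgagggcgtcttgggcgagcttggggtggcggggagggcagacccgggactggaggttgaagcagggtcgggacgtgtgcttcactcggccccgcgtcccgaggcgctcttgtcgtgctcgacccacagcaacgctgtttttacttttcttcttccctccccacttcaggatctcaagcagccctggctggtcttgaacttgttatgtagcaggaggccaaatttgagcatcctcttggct
Racgap1 held 1 match to each motif, Ccnb2 held 2 TTTGAA and 3 CCAAT, Cdc20 held 1 TTTGAA and 2 CCAAT, and Pttg1 held neither.

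RefSeq promoters were at hand for 48 of the 56 members, and Tpx2, Cdc25c, Ccna2, Aurkb, Kif20a, Smc4, Spc24 and Incenp were the 8 without one. TTTGAA stood in 35 of the 48 windows, or 72.9%, against 18.1% of the windows of 27025 genes. CCAAT stood in 36, or 75.0%, against 37.9%. Both stood in 31 of the member windows, or 64.6%, against 7.12% of all, and in 2 of these a TTTGAA match overlapped a CCAAT match. Member windows were 58.8% G and C and all windows 53.6%. In the 100 bases centred on the start, TTTGAA stood in 64.6% of member windows and 4.92% of all. Besides Pttg1, the members with neither motif in the window were Birc5, Ube2s, Mad2l1, Nusap1, Nuf2, Knstrn and Tacc3. A match is a string of letters and was not tested as a binding site.

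The libraries held 56007532 to 98893436 UMIs, and after filters on depth and mitochondrial share they gave 13873 epithelial cells from untreated mice, 3897 at day 1, 12907 at day 3 with AREG and 7963 at day 3. Median UMIs per epithelial cell were 2511, 2766, 2685 and 3013 in the same order. The only cluster named as non-epithelial was endothelial, with 8 to 29 cells a library. Of 11 lists of markers of immune, stromal, endothelial and blood cells, the endothelial one summed to 28.1 to 48.8 CPM over the libraries, CPM being UMIs per 1000000 UMIs of the epithelial cells, the mast cell one to 10.0 to 24.6 CPM, and the others to 6.27 CPM or less. Pairs of libraries shared 0 to 3 cell barcodes. At day 1, 17.4% of the epithelial cells stayed unnamed, against 0.0377% to 0.490% in the other libraries, and neck- and chief-like cells numbered 68. Each condition was a single library, so conditions could not be tested against each other, and p-values are left out. The intervals below are exact 95% counting intervals (Poisson for levels, conditional binomial for their ratios, Clopper-Pearson for shares, Katz for ratios of shares), and they cover counting error only. A UMI counts a 3' end once, so levels need no scaling to transcript length. In sums over a library, more cells with mitosis RNA and more of it per cell cannot be told apart.

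Summed over the 56 genes, the level was highest at day 1 and lowest at day 3 without AREG. The sum was 901 CPM in untreated epithelial cells (893 to 908), 1551 CPM at day 1 (1539 to 1563), 1023 CPM at day 3 with AREG (1014 to 1032) and 634.8 CPM at day 3 (627 to 642). Of the single genes, 54 of 56 had their highest level at day 1. Knstrn, a kinetochore protein of the spindle, was highest at day 3 with AREG, and Pttg1, which encodes securin, was highest at day 3. At day 3 without AREG, 45 of the 56 had their lowest level. Barcodes with fewer than 50 UMIs, which hold free RNA, had the members at 740, 1537, 867 and 573 CPM in the order untreated, day 1, day 3 with AREG and day 3, close to the level in the cells. The part of this free RNA in the sums was not tested.

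**Figure D1:**
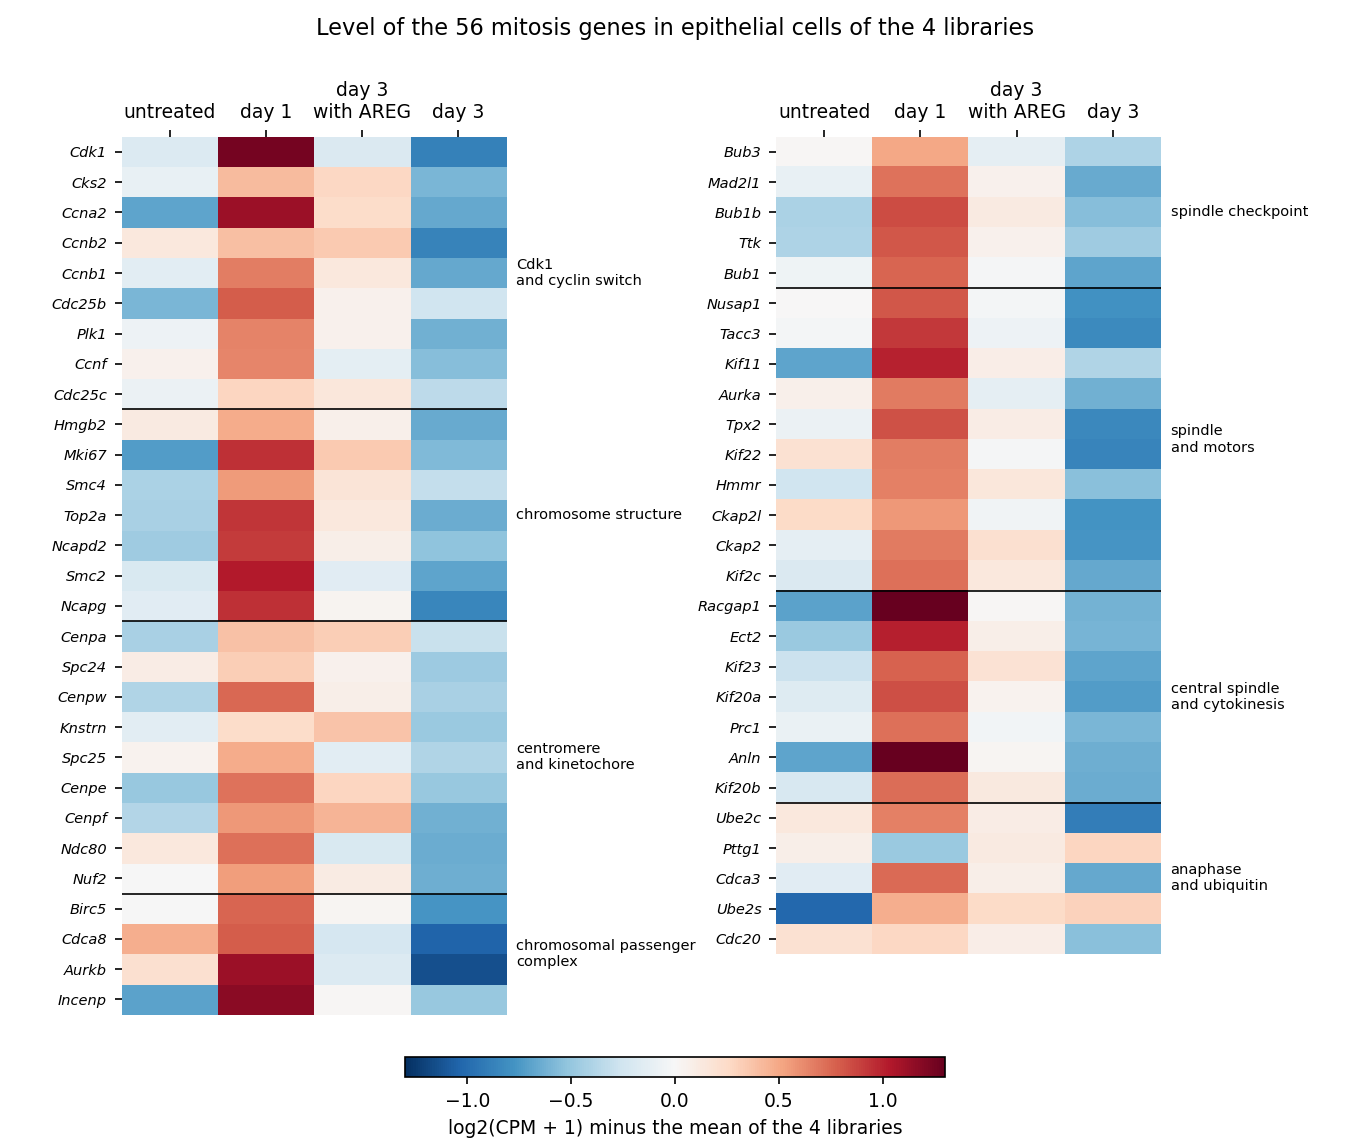
Level of each of the 56 genes in epithelial cells of the 4 libraries, as log2(CPM + 1) minus the mean of that gene over the libraries (colour), with genes in rows, grouped by role, and libraries in columns. Red is above the gene's own mean and blue below it; 54 genes are reddest at day 1, and the exceptions are Knstrn and Pttg1.

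At day 1 against untreated, 20 of the 56 genes were at least 2-fold higher and 0 were at least 2-fold lower, on the scale of log2(CPM + 1), which understates the ratios of low genes. Of all 21585 genes with at least 10 UMIs over the 2 libraries, 16.0% were 2-fold higher and 1.77% 2-fold lower. The median log2 ratio was 0.89 for the members and 0.32 for all genes. With the total taken without mitochondrial genes, genes of ribosomal proteins and the top 20 of the remaining genes by abundance, those medians were 0.60 and 0.21, so the members stood 0.57 and 0.39 above the median gene by the 2 scalings. The summed level had a log2 ratio of 0.78 (0.77 to 0.80), or 1.72-fold, which was 0.43 on the second scaling. Over single genes, 55 were above 0 on the first scaling and 50 on the second, where Ccnb2, Cdca8, Cdc20, Spc24 and Ckap2l turned below 0.

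At day 3 against day 1, 0 members were 2-fold higher and 46 were 2-fold lower, beside 3.18% and 4.77% of 21747 genes. The median log2 ratio was -1.37 for the members and -0.03 for all genes, and the summed level had a log2 ratio of -1.29 (-1.31 to -1.27). At day 3 with AREG against day 3, 2 members, Ccnb2 and Cenpf, were 2-fold higher and 0 were 2-fold lower, beside 0.051% and 0.227% of 21564 genes. Although few passed 2-fold, 54 of 56 were above 0, and the median log2 ratio was 0.70 for the members against -0.03 for all genes. The summed level was 1.61-fold higher, a log2 ratio of 0.69 (0.67 to 0.71). With a pseudocount of 10 CPM in place of 1, the members past 2-fold were 5 at day 1 against untreated, 11 at day 3 against day 1 and 0 with AREG, and without the 10 cells of each library with the most member UMIs 9 were past 2-fold with AREG. The 3 comparisons share libraries, so their values are not independent of one another.

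Against untreated cells, day 3 with AREG had 2 members 2-fold higher, Ube2s and Mki67, and 0 lower, beside 9.26% and 0.853% of 21446 genes, and the summed level had a log2 ratio of 0.18. Day 3 without AREG had 1 member 2-fold higher, Ube2s, beside 10.5% of 21445 genes. It had 6 members 2-fold lower, beside 0.942%: Cdca8, Aurkb, Kif22, Ube2c, Ckap2l and Ccnb2. Its summed level had a log2 ratio of -0.50. The median gene stood at 0.24 and 0.29 in these comparisons, so the median member stood at -0.03 relative to it with AREG and at -0.78 without. On the second scaling 15 members turned sign with AREG and 8 without, so no direction is read for single members with small ratios to untreated cells.

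**Figure D2:**
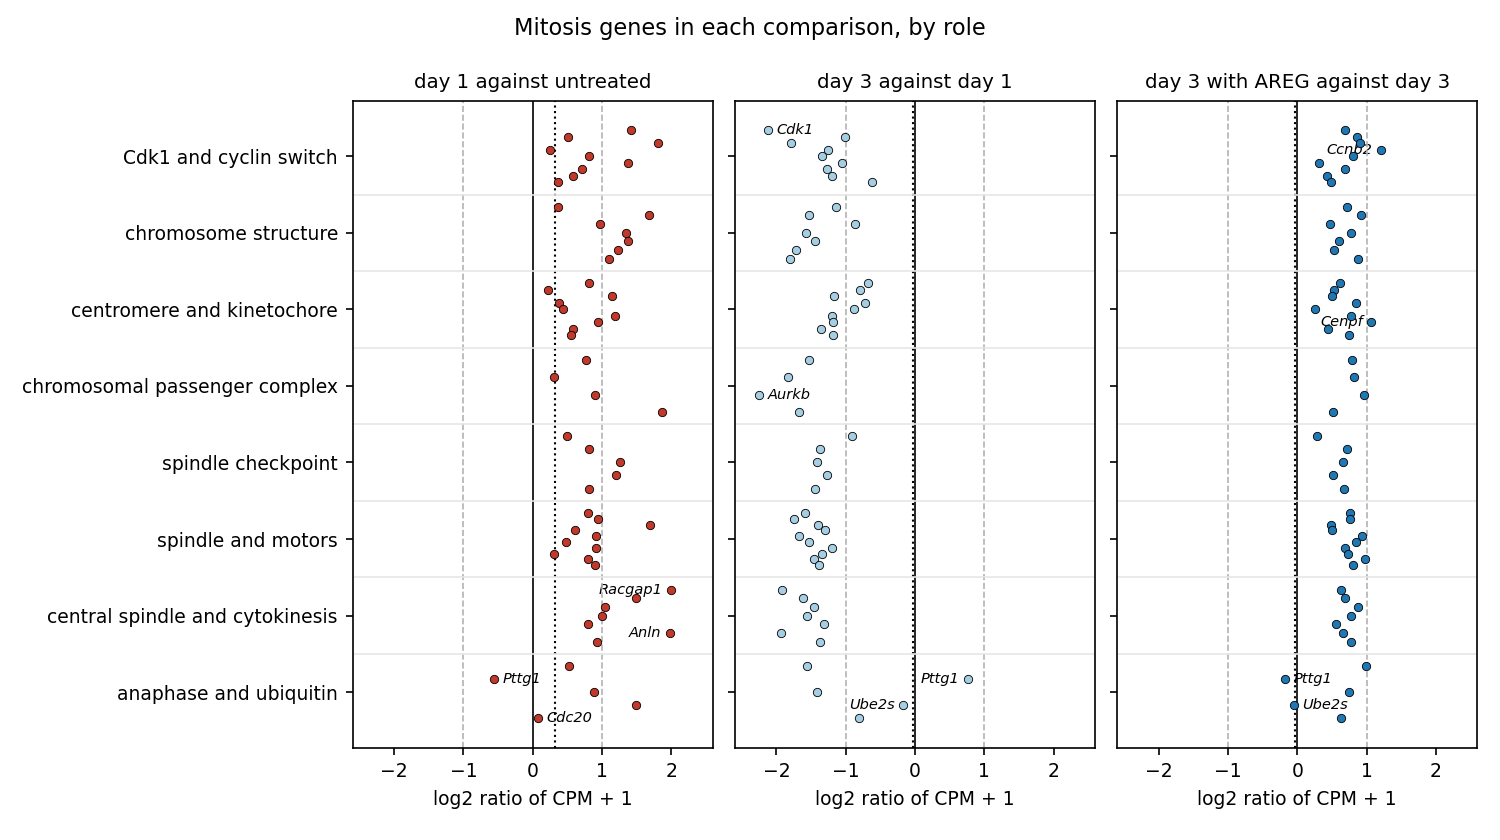
Log2 ratio of CPM + 1 (x axis) for each of the 56 genes (points), by role (y axis), in the 3 comparisons (panels). Dashed lines mark 2-fold and dotted lines the median of all genes (0.32, -0.03 and -0.03); in the first panel 55 points lie above 0, of which Ccnb2, Cdca8, Cdc20, Spc24 and Ckap2l turn below 0 without the abundant genes, and in the third panel 54 lie above 0 and Pttg1 and Ube2s below it.

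Behind the counts of each role stand the same shares of all genes. These are 16.0% 2-fold higher at day 1 against untreated and 4.77% 2-fold lower at day 3 against day 1. Among the 9 genes of the Cdk1 and cyclin switch, 3 were 2-fold higher at day 1 against untreated. The median log2 ratio of the 9 genes was 0.71. Cdk1, the kinase itself, had 28.3 CPM in untreated cells (27.0 to 29.7), 77.1 CPM at day 1 (74.4 to 79.9), 27.9 CPM at day 3 with AREG (26.5 to 29.4) and 17.0 CPM at day 3 (15.8 to 18.3). These intervals do not overlap except those of untreated cells and of day 3 with AREG. Ccna2, the A-type cyclin, had 12.2 CPM in untreated cells, 45.0 at day 1, 24.1 at day 3 with AREG and 12.4 at day 3, a log2 ratio of 1.80 at day 1. The B-type cyclins did not share that size. Ccnb2 had 23.8 CPM in untreated cells, 28.5 at day 1, 27.5 at day 3 with AREG and 11.3 at day 3, so its day 1 log2 ratio was only 0.25 and its AREG ratio, 1.20, was the largest of the 56. Ccnb1 had 13.8, 24.9, 16.9 and 9.27 CPM in the same order of libraries. The low library for both was day 3 without AREG. Cks2, which binds Cdk1, had 22.1, 32.003, 28.8 and 15.4 CPM, again with the lowest value at day 3. The phosphatases that activate Cdk1 were less alike: Cdc25b had log2 ratios of 1.38 at day 1 and 0.32 for AREG, and Cdc25c had 0.36 and 0.49. Plk1, a kinase of mitotic entry, had 8.47, 14.4, 9.29 and 5.41 CPM. Ccnf, a cyclin that is part of a ubiquitin ligase, had 5.50, 8.74, 4.72 and 3.26 CPM.

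Of the 7 genes of chromosome structure, 5 were 2-fold higher at day 1 against untreated, the largest share of any role together with the central spindle. Hmgb2, a chromatin protein, had 171 CPM in untreated cells, 221 at day 1, 165 at day 3 with AREG and 99.9 at day 3, a day 1 log2 ratio of 0.37. Hmgb2 alone gave 10517 of the 55510 untreated member UMIs. Mki67, which coats mitotic chromosomes, had 10.3, 34.9, 22.5 and 11.5 CPM, a day 1 log2 ratio of 1.67. Top2a, the topoisomerase, had 11.8, 31.5, 17.7 and 9.94 CPM. At day 3 without AREG both lay near their untreated levels, and with AREG both lay above them. Of the condensin subunits, Smc4 had 13.8, 27.9, 21.1 and 14.9 CPM and Smc2 had 6.12, 15.7, 6.34 and 4.08 CPM. Ncapd2 and Ncapg had day 1 log2 ratios of 1.37 and 1.10.

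The 9 genes of the centromere and kinetochore had a smaller median log2 ratio at day 1, 0.58. Of the 9, Cenpw and Cenpe were past 2-fold, a count of 2 near the share of all genes, 16.0%. Cenpa, the histone variant that marks centromeres, had 23.6 CPM in untreated cells, 42.0 at day 1, 40.3 at day 3 with AREG and 26.0 at day 3. Knstrn had 11.2, 14.8, 16.3 and 8.60 CPM. These 2 genes had nearly as high or higher levels at day 3 with AREG as at day 1. Within the Ndc80 complex, which grips microtubules, Spc24 had 30.1, 35.3, 29.3 and 19.99 CPM and Spc25 10.3, 14.3, 8.93 and 7.32 CPM. Their partners Ndc80 and Nuf2 had day 1 log2 ratios of 0.58 and 0.55, so the whole complex was among the smaller differences. Cenpw, a protein of the inner kinetochore, had 11.8, 27.2, 16.8 and 11.6 CPM. Cenpf, a large kinetochore protein, had 4.09, 8.77, 8.001 and 3.29 CPM, a log2 ratio for AREG of 1.07. The kinetochore motor Cenpe had 4.15, 10.8, 7.79 and 4.12 CPM.

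The chromosomal passenger complex, which corrects wrong attachments, was the role with the lowest median at day 3 against day 1, -1.75, and all 4 of its genes were past 2-fold lower there. Aurkb, its kinase, had 10.2 CPM in untreated cells, 19.95 at day 1, 7.62 at day 3 with AREG and 3.41 at day 3, a day 3 log2 ratio of -2.25. Cdca8, or borealin, had 22.0, 27.6, 13.3 and 7.08 CPM. Both were below the untreated level at day 3 with and without AREG. Birc5, or survivin, had 46.2, 79.3, 47.2 and 26.8 CPM, and Incenp, the scaffold, had 3.49, 15.4, 6.36 and 4.15 CPM. Incenp differed from its 3 partners in that its log2 ratio at day 1 was 1.87, against 0.90, 0.77 and 0.31 for Aurkb, Birc5 and Cdca8. The complex gave 9.09% of member UMIs in untreated cells (8.86 to 9.34), 9.17% at day 1, 7.28% at day 3 with AREG and 6.53% at day 3 (6.23 to 6.83).

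The 5 spindle checkpoint genes had a median log2 ratio of 0.81 at day 1. Bub3, which brings checkpoint kinases to the kinetochore, had 41.1 CPM in untreated cells, 58.1 at day 1, 37.3 at day 3 with AREG and 30.6 at day 3, the smallest differences of the 5. Mad2l1 had 12.5, 22.7, 14.1 and 8.20 CPM, and Bub1b had 3.73, 10.4, 5.80 and 3.29 CPM. Ttk, the checkpoint kinase Mps1, and Bub1 were at 1.75 and 2.40 CPM in untreated cells and at 5.35 and 4.97 CPM at day 1. Of the 10 genes of the spindle and its motors only Kif11 was 2-fold higher at day 1, beside 16.0% of all genes. All 10 were 2-fold lower at day 3 against day 1, beside 4.77%. Kif11, the motor that pushes the poles apart, had 5.01, 18.3, 9.27 and 6.36 CPM, a day 1 log2 ratio of 1.68. Nusap1, which bundles microtubules, had 11.9, 21.4, 11.6 and 6.46 CPM, and Tacc3, which stabilises spindle fibres, had 9.54, 19.3, 9.29 and 5.05 CPM. The kinase Aurka and its activator Tpx2 had day 1 log2 ratios of 0.61 and 0.91. Kif22, a chromosome-arm motor, had 10.0, 14.3, 8.54 and 4.31 CPM, and the microtubule depolymerase Kif2c and the spindle protein Hmmr had day 1 log2 ratios of 0.90 and 0.91. The AREG log2 ratios of the group lay between 0.48 and 0.98, with Ckap2 the highest. Its relative Ckap2l was lower at day 3 than in untreated cells, at 3.43 against 8.02 CPM.

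The 2 largest single ratios at day 1 were in the group of the central spindle and cytokinesis, of whose 7 genes 5 were 2-fold higher and all 7 were 2-fold lower at day 3 against day 1. Racgap1, a subunit of the centralspindlin complex that recruits the cleavage machinery, had 7.53 CPM in untreated cells (6.86 to 8.25), 32.9 CPM at day 1 (31.1 to 34.7), 13.0 CPM at day 3 with AREG (12.1 to 14.0) and 8.01 CPM at day 3 (7.17 to 8.91). Its partner Kif23 had 8.05, 17.7, 11.5 and 5.84 CPM, so the day 1 log2 ratios of the pair were 1.99 and 1.05. Anln, which organises the contractile ring, had 3.41, 16.4, 6.21 and 3.55 CPM, a day 1 log2 ratio of 1.98. Ect2, an exchange factor of the cleavage site, had 7.32, 22.4, 11.2 and 6.60 CPM. Kif20a and Kif20b, motors of the midzone, had day 1 log2 ratios of 1.00 and 0.93, and Prc1, which bundles the midzone, had 0.80. As a share of member UMIs the 7 genes made up 5.08% in untreated cells (4.90 to 5.26), 8.29% at day 1 (8.07 to 8.51), 6.28% at day 3 with AREG (6.08 to 6.49) and 5.77% at day 3 (5.50 to 6.06), a measure that does not depend on the scaling to CPM.

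The 5 genes of anaphase and ubiquitin transfer were the most mixed. Ube2c, the enzyme that starts ubiquitin chains for the anaphase-promoting complex, had 79.2 CPM in untreated cells, 114 at day 1, 77.3 at day 3 with AREG and 38.2 at day 3. Its AREG log2 ratio was just under 1, at 0.997. Cdc20, the activator of that complex, had 23.7, 24.9, 21.9 and 13.8 CPM, a day 1 log2 ratio of 0.07, and Cdca3, which promotes mitotic entry, had 31.2, 58.4, 36.3 and 21.3 CPM. Ube2s, which lengthens the chains that Ube2c starts, had 11.04, 32.7, 28.1 and 29.1 CPM and so was 2-fold higher at day 1 but close to that level in both day 3 libraries. Pttg1 had 39.5 CPM in untreated cells (37.9 to 41.1), 26.4 CPM at day 1 (24.9 to 28.1), 40.4 CPM at day 3 with AREG (38.7 to 42.2) and 45.5 CPM at day 3 (43.5 to 47.6), the only member lower at day 1 than untreated. It was the one member with a log2 ratio above 0 at day 3 against day 1, 0.76.

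Pttg1 and Ube2s also stood apart in the cells that held them. In parietal-like cells, Pttg1 had 95.5 CPM in untreated mice, 82.6 at day 1, 69.2 at day 3 with AREG and 77.0 at day 3, and in proliferating-like cells 37.1, 23.5, 34.9 and 41.4 CPM. Ube2s had 25.7, 52.1, 35.5 and 42.6 CPM in parietal-like cells and 14.5, 44.2, 64.1 and 63.2 CPM in proliferating-like cells. For comparison Cdk1 had 10.3, 26.2, 6.90 and 9.19 CPM in parietal-like cells and 108, 136, 255 and 248 CPM in proliferating-like cells. The share of parietal-like cells differed between libraries, at 32.1% of epithelial cells in untreated mice, 9.14% at day 1, 26.6% at day 3 with AREG and 25.6% at day 3, and its part in the Pttg1 levels was not tested.

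Cells with mitosis RNA were counted by thinning every cell to 500 UMIs and calling it core-positive with at least 2 UMIs of 24 core members such as Mki67, Top2a, Cdk1 and the cyclins; every cell had 500 UMIs, so none was left out. The share of core-positive epithelial cells was 3.01% in untreated mice (418 cells, 2.73 to 3.31), 8.93% at day 1 (348 cells, 8.05 to 9.87), 4.53% at day 3 with AREG (585 cells, 4.18 to 4.91) and 2.02% at day 3 (161 cells, 1.72 to 2.36). No 2 of these intervals overlap. The log2 ratios were 1.57 at day 1 against untreated (1.37 to 1.77), -2.14 at day 3 against day 1 (-2.41 to -1.88) and 1.16 at day 3 with AREG against day 3 (0.92 to 1.41). Without thinning the shares were 11.6%, 30.6%, 13.0% and 8.35%, and the AREG log2 ratio was 0.64. Day 3 with AREG lay above the untreated share and day 3 below it. Near-empty barcodes had the core genes at 292, 758, 395 and 229 CPM in the order untreated, day 1, day 3 with AREG and day 3. Core-positive cells had median depths of 5034, 1963, 2964 and 3563 UMIs, against 2462, 2966, 2676 and 3002.5 in other epithelial cells. Over all classes together they were thus shallower than the others at day 1 only. In pit-like cells they were shallower in every library, at medians of 1481, 827, 1557 and 1329 UMIs against 2682, 3431.5, 2291 and 2596.5. Parietal-like ones were shallower in every library but the untreated one. Proliferating-like ones were shallower at day 1 only, and neck- and chief-like ones at day 3 with AREG only. The part of free RNA and of depth in the shares was not tested.

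The 32 members outside the core list did not enter that call, and they followed it. Their level in core-positive cells against other epithelial cells had a median ratio of 8.68-fold in untreated mice, 4.53-fold at day 1, 13.0-fold at day 3 with AREG and 19.7-fold at day 3. Pttg1 was the lowest of the 32 in every library, at 1.05-fold, 1.29-fold, 1.01-fold and 1.33-fold. The highest were Cdc25c in untreated mice, Kif2c at day 1, Ncapg at day 3 with AREG and Ckap2l at day 3. The lower ratios at day 1 went with more member RNA in near-empty barcodes there, and the part of that was not tested.

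Core-positive cells also differed between libraries in how often they carried S-phase RNA. With at least 2 UMIs of a list of 30 replication genes as the call, 16.3% of core-positive cells were S-positive in untreated mice (12.9 to 20.2), 29.3% at day 1 (24.6 to 34.4), 10.9% at day 3 with AREG (8.53 to 13.8) and 16.1% at day 3 (10.8 to 22.8). In the other epithelial cells the S-positive shares were 4.24%, 14.4%, 1.82% and 1.64% in the same order. Day 1 was thus highest in both kinds of cell, and its high share is not particular to core-positive cells. Cells with at least 5 core UMIs made up 6.70%, 8.62%, 13.3% and 9.32% of the core-positive cells. Among core-positive cells, day 3 with AREG had the lowest share with S-phase RNA and the highest share with many core UMIs. Its intervals overlapped those of day 3 on both measures.

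Mitosis and S-phase genes differed in unequal proportion. The S-phase list summed to 542 CPM in untreated cells, 1158 at day 1, 342 at day 3 with AREG and 309 at day 3. Day 3 with AREG against day 3 had a log2 ratio of 0.15 for the S-phase list (0.11 to 0.18), or 1.11-fold, and of 0.69 for the 56 mitosis genes. There were 1.66 member UMIs per S-phase UMI in untreated cells, 1.34 at day 1, 2.99 at day 3 with AREG and 2.05 at day 3. Of the replication genes 16 of 30 were 2-fold higher at day 1 against untreated, beside 16.0% of all genes. At day 3 against day 1, 26 were 2-fold lower, beside 4.77%. None were past 2-fold with AREG, beside 0.051% higher and 0.227% lower. Tk1, which makes thymidine monophosphate, had the largest AREG difference of the list, 22.9 against 14.9 CPM. Mcm6, a subunit of the replicative helicase, had 15.6 against 12.8 CPM, and Rrm2, which makes deoxynucleotides, had 13.1 against 12.8 CPM.

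**Figure D3:**
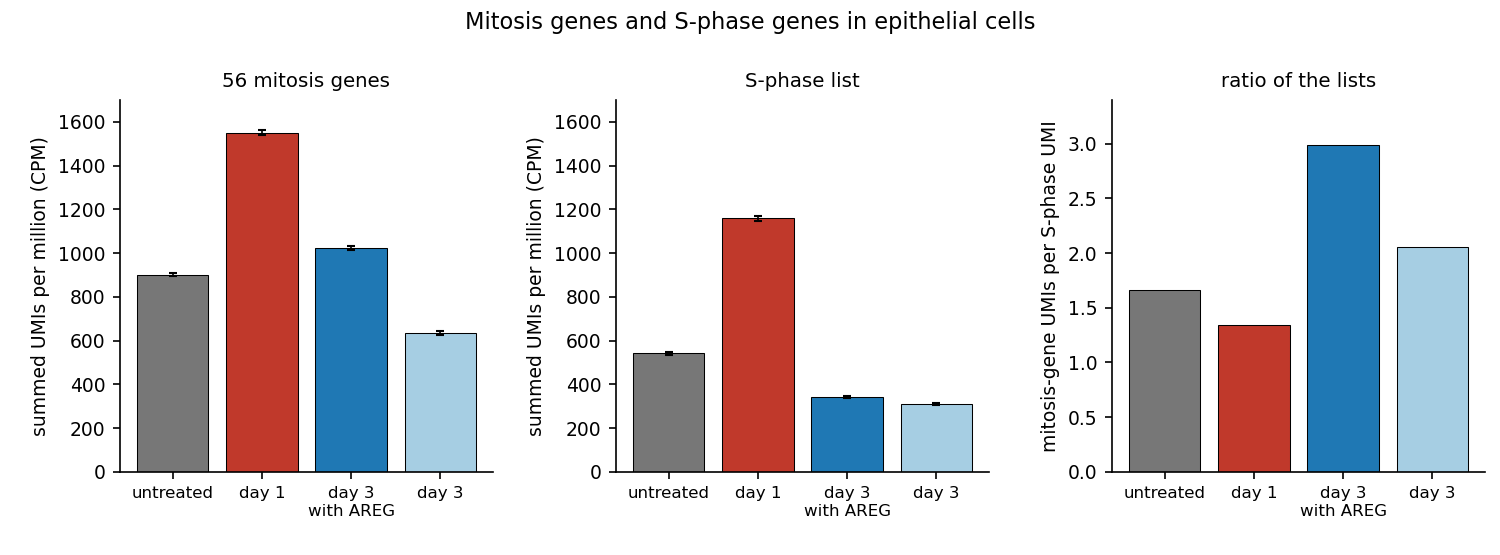
Summed level (CPM) of the 56 mitosis genes and of the 30 S-phase genes in epithelial cells of the 4 libraries, with exact 95% Poisson intervals, and the number of mitosis-gene UMIs per S-phase UMI. Day 1 is highest for both lists (1551 and 1158 CPM), and the ratio of the lists is highest at day 3 with AREG, at 2.99.

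Cell classes came from clusters made with the 56 genes left out of the variable genes. The clusters did use S-phase genes, which differed between libraries, so class sizes are given only as denominators. In proliferating-like cells 17.2% of 1629 cells were core-positive in untreated mice (15.4 to 19.2), 18.2% of 1225 at day 1 (16.1 to 20.5), 48.6% of 463 at day 3 with AREG (44.0 to 53.3) and 28.8% of 156 at day 3 (21.9 to 36.6). The members summed to 3043, 2603, 7041 and 6151 CPM there. Both day 3 libraries thus had more than the others in this class, and by these intervals the share of positive cells with AREG lay above that at day 3. At a Leiden resolution of 2 the shares were 48.1% with AREG (42.1 to 54.3) and 37.7% at day 3 (26.9 to 49.4), and the intervals overlapped. With a coarser clustering (Leiden resolution 0.5) the day 1 share was 29.1% (20.6 to 38.9) of only 103 cells, in place of 1225. Most day 1 cells of the class thus did not keep its name at that setting. The gap between day 1 and day 3 in that share depends on how the class is drawn. The day 1 gene ratios given for this class hold for the class as drawn at resolution 1. Proliferating-like cells at day 1 lay mostly in cluster 11 (89.3% of them), which was led by Msln, Krt7, S100a10, Plac9 and Wfdc2 and was nearly all from that library, and those of the other 3 libraries in cluster 6, led by Ube2c, Pclaf, Tuba1b, Birc5 and Cdk1. The 131 day 1 cells in cluster 6 had the members at 3263 CPM and the 1094 in cluster 11 at 2598 CPM.

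Day 1 against untreated in the proliferating-like class sets cells mostly of cluster 11 against cells nearly all of cluster 6, so cell kind and time cannot be told apart there. Within cluster 6 alone the members summed to 3263 CPM at day 1, against 3041 CPM in untreated mice. Over the whole class the members differed in sign. By the fold alone 4 were 2-fold higher, beside 22.5% of 16583 genes, and 1 was 2-fold lower, beside 1.31%. By the counting interval of each gene, 17 were higher, beside 50.1% of 16583 genes, and 24 were lower, beside 12.1%. Anln and Racgap1 had log2 ratios of 1.37 (1.09 to 1.66) and 1.22 (1.04 to 1.41), Incenp 1.21, and Ube2s, at 1.61, was the highest. Cdc20 had -1.02 (-1.15 to -0.89), Ccnb2 -0.78, Cdca8 -0.78, Spc24 -0.77 and Hmgb2 -0.69. Between day 3 cells, 96.8% of them in cluster 6, and day 1 cells, 89.3% in cluster 11, all 56 were higher at day 3 by their intervals, beside 12.2% of 15695 genes, with a median log2 ratio of 1.20 against -0.05 for all genes. Of them 37 were 2-fold higher, beside 5.22%, and 0 were 2-fold lower, beside 7.88%. Knstrn at 1.84 and Cdc20 at 1.76 were the highest. At day 3 with AREG against day 3, 15 were higher, beside 3.06% of 11392 genes, and none were lower, beside 9.23%, and 0 were past 2-fold either way, beside 2.17% higher and 2.93% lower. Ube2c had 0.46 (0.34 to 0.59) and Ccnb2 0.50 (0.24 to 0.78), and Cdk1 had 0.04 (-0.15 to 0.23).

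Of the 4 classes compared, the pit-like class, named from pit cell markers, had the largest ratio of day 3 with AREG to day 3. The difference in percent of cells was larger in the proliferating-like class. Core-positive cells were 3.50% of 6831 pit-like cells at day 3 with AREG (3.08 to 3.96) and 1.12% of 4715 at day 3 (0.843 to 1.47). The log2 ratio of these shares was 1.64 (1.21 to 2.06). Parietal-like cells, taken as background since they do not divide, gave 1.63% at day 3 with AREG and 1.52% at day 3, at median depths of 3543 and 4115 UMIs against 2263 and 2578 for pit-like cells. In this clustering the pit-like share with AREG lay above that background. At day 3 the pit-like interval overlapped the parietal-like one (1.04 to 2.15), so that share is not read as above background. Core genes in pit-like cells were at 252 CPM with AREG and 84.4 CPM at day 3. Both lay below the near-empty barcodes of the same libraries, at 395 and 229 CPM. The part of free RNA in the pit-like shares was not tested. In untreated pit-like cells the share was 1.78%, against 0.472% in parietal-like cells, and at day 1 it was 4.38% against 2.53%, whose intervals overlap. With the 56 genes kept among the variable genes of the clustering, fewer core-positive cells were pit-like. They were 97 of 5671 with AREG, against 239 of 6831 before, and 35 of 4498 at day 3, against 53 of 4715. Whether the core-positive pit-like cells were mature pit cells was not tested. The shares with the genes kept were 1.71% with AREG and 0.778% at day 3. Their log2 ratio was then 1.14 (0.58 to 1.69). The 1.71% lay within the parietal-like interval with AREG of the clustering without the genes (1.24 to 2.12). With the genes kept, the pit-like share with AREG is therefore not read as above background.

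Gene by gene, 24 of the 56 members were 2-fold higher in pit-like cells at day 3 with AREG against day 3, of only 62 such genes in all, or 0.344% of 18040, and 0 were 2-fold lower, beside 0.599%. By their counting intervals 50 were higher, beside 15.8% of all genes, and none were lower, beside 18.5%. Ube2c had 39.0 CPM with AREG against 10.4 CPM at day 3, Cdca3 27.8 against 7.35, Cenpa 25.3 against 6.75, Birc5 29.0 against 8.32 and Ccnb1 9.66 against 2.21 CPM. Mki67 had 17.3 against 6.64 CPM. Pttg1, with 24.4 against 27.3 CPM, Ube2s, with 19.0 against 19.0, and Cdc25b, with 11.9 against 12.05, did not differ beyond counting error. Non-members among the 62 included Cdkn3, a phosphatase of Cdk1 substrates and Cdk1 itself, at 11.7 against 2.92 CPM. The spindle pole gene Aspm, the centromere gene Cenpm and the replication factor Pclaf were also there. The largest ratio of the 62 was that of the non-member Gm47854, at 341 against 0.162 CPM. Cul3, Tff3, Tfrc, Fosb and the mitochondrial gene mt-Nd2 were among them too, so the non-members were not division genes alone. All these non-members were picked after their values were seen.

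In the other classes the AREG differences were smaller. The summed members had a log2 ratio of 1.09 in pit-like cells (1.04 to 1.13), 0.30 in neck- and chief-like cells (0.25 to 0.36), 0.20 in proliferating-like cells (0.16 to 0.23) and -0.20 in parietal-like cells (-0.24 to -0.16). Neck- and chief-like cells were core-positive at 3.20% with AREG and 3.25% at day 3. In that class 14 members were higher by their intervals, beside 16.8% of 15632 genes, and 1, Aurka, was lower, beside 5.62%. There 2 were 2-fold higher, beside 0.48%, and 0 2-fold lower, beside 0.896%. In parietal-like cells 0 were past 2-fold, beside 0.0591% higher and 0.165% lower, 1, Kif20b, was higher by its interval, beside 7.49% of 16919 genes, and 18 were lower, beside 10.1%, Cdk1, Birc5, Ube2c and Pttg1 among them. The S-phase list had log2 ratios of 0.16 in pit-like cells and 0.14 in neck- and chief-like cells. In proliferating-like cells it had -0.36 (-0.43 to -0.28) and in parietal-like cells -0.12 (-0.18 to -0.06).

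**Figure D4:**
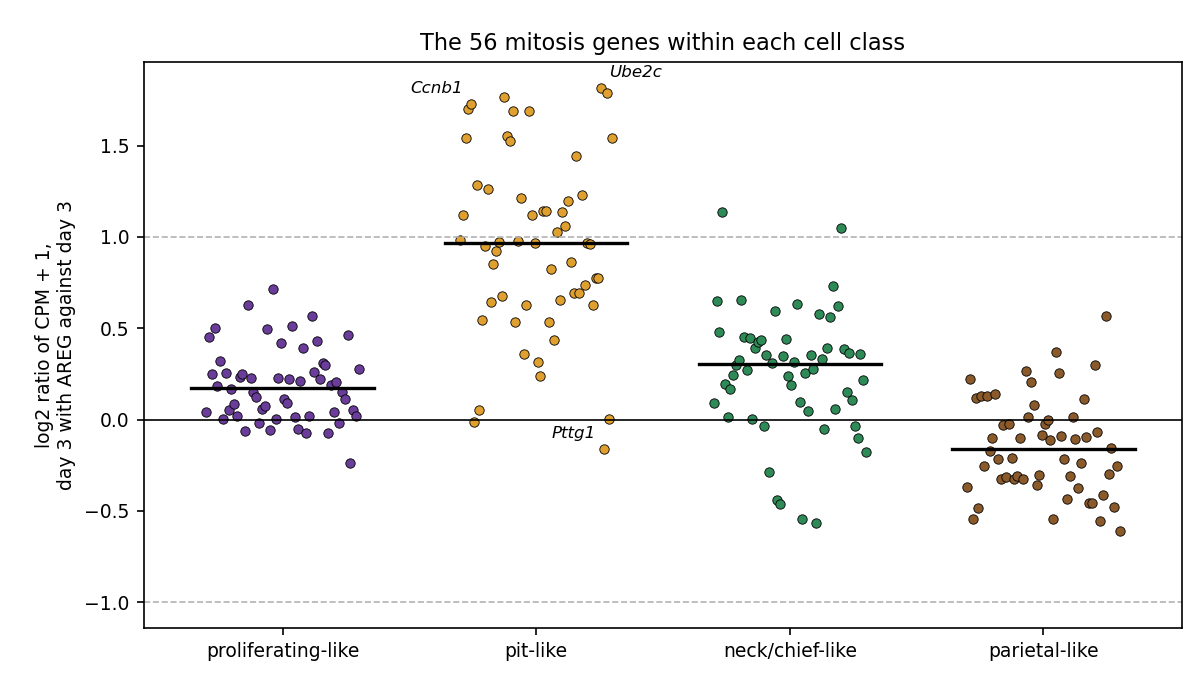
Log2 ratio of CPM + 1 at day 3 with AREG against day 3 (y axis) for each of the 56 genes (points) within 4 cell classes (x axis), with the median as a bar and dashed lines at 2-fold. In pit-like cells 24 genes are past 2-fold and the median is 0.97; the medians are 0.18 in proliferating-like, 0.30 in neck/chief-like and -0.16 in parietal-like cells.

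Part of the pit-like cells with AREG lay in cluster 2, which was led by Ces1f, Mogat1 and Mt2. That cluster held 31.0% of the pit-like cells with AREG and 11.6% of those at day 3, and its core-positive share was 5.61% (119 of 2121 cells, 4.67 to 6.68) with AREG and 3.11% (17 of 546, 1.82 to 4.94) at day 3. In pit-like cells outside it the shares were 2.55% (2.12 to 3.04) with AREG and 0.864% (0.606 to 1.19) at day 3, a log2 ratio of 1.56. The ratio was thus about as large without that cluster, while the difference in percent of cells was smaller. Within cluster 2 the intervals with AREG and at day 3 overlapped. Core-positive pit-like cells were shallow, at a median of 1557 UMIs with AREG and 1329 at day 3, against 2291 and 2596.5 in the other pit-like cells. Of all core-positive epithelial cells, pit-like cells made up 40.9% with AREG and 32.9% at day 3, and proliferating-like cells 38.5% and 28.0%.

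**Figure D5:**
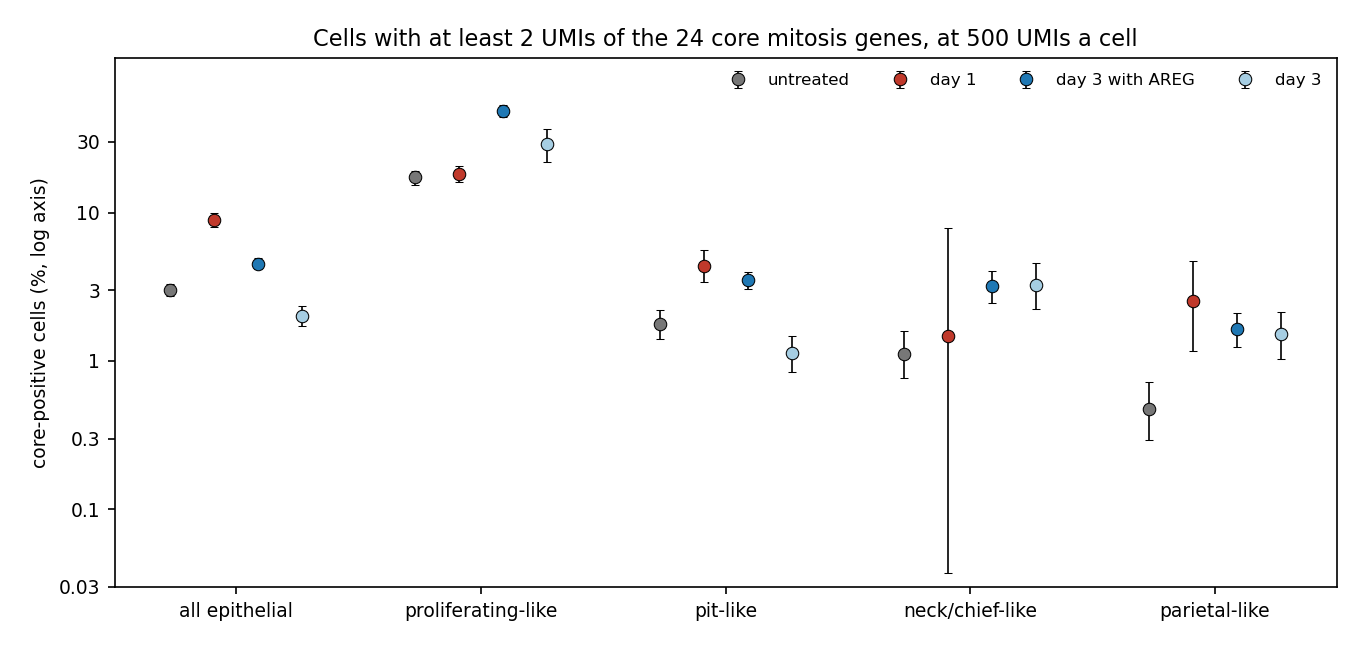
Share of core-positive cells (log axis, %) among all epithelial cells and in 4 classes, for the 4 libraries (colours), with exact 95% Clopper-Pearson intervals. Among all epithelial cells day 1 is highest, at 8.93%, and day 3 lowest, at 2.02%; among pit-like cells day 3 with AREG, at 3.50%, lies above day 3, at 1.12%.

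Core-positive cells carried more Tff2 and Stmn1 and less parietal RNA than the other epithelial cells. Tff2, the trefoil factor of mucous neck cells, was at 26482 CPM in core-positive against 12215 CPM in other untreated epithelial cells, and the log2 ratio lay between 0.80 and 1.23 in the 4 libraries. The other neck genes did not follow it. Muc6, a gland mucin, had log2 ratios of -0.54 in untreated mice, -0.65 at day 1, -0.62 at day 3 with AREG and -0.04 at day 3. Gkn3, a gastrokine, had -1.27, -1.26, -0.28 and 0.35 in the same order. Of the Gkn3 UMIs in core-positive cells, 1 cell held 42.7%, 17.5%, 7.77% and 31.3% in that order, so these ratios rest partly on 1 cell. Stmn1, which destabilises microtubules, was at 476 against 88.2 CPM in untreated mice, 300.2 against 100.2 at day 1, 401 against 44.4 at day 3 with AREG and 399 against 33.3 at day 3. The 8 parietal markers summed to 1599 against 6783 CPM in untreated mice, a log2 ratio of -2.08, and it lay between -2.32 and -1.21 over the 4 libraries. The 9 chief cell markers had log2 ratios of -1.63 in untreated mice, -0.24 at day 1, -0.69 at day 3 with AREG and -0.28 at day 3. In core-positive cells at day 3, 1 cell held 21.1% of the parietal marker UMIs and 1 cell held 21.8% of the chief ones. For the parietal markers this was 16.8% at day 1. The list of pit markers had log2 ratios of -0.27 in untreated mice, -1.07 at day 1, -0.08 at day 3 with AREG and -0.86 at day 3. At day 1 Areg was no higher in core-positive cells, with 83.2 against 79.7 CPM and a log2 ratio of 0.06 (-0.11 to 0.23). Of the Areg UMIs in those cells 1 cell held 20.7%, so that ratio also rests partly on 1 cell.

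The other genes of cell division differed less between day 3 with AREG and day 3. The same shares of all genes, 16.0% 2-fold higher at day 1 and 4.77% 2-fold lower at day 3 against day 1, stand behind each list here. With AREG against day 3 the shares were 0.051% higher and 0.227% lower. In a list of 58 further mitosis genes, 23 were 2-fold higher at day 1 against untreated, 34 were 2-fold lower at day 3 against day 1 and none were past 2-fold with AREG, where their median log2 ratio was 0.36. Cks1b, which binds cyclin-dependent kinases, had the largest AREG ratio among those above 10 CPM, at 15.9 against 10.5 CPM. Of 22 genes of the transcription of mitosis genes, 13 were 2-fold higher at day 1 and 6 were 2-fold lower at day 3 against day 1. Foxm1, which drives G2/M transcription, had 0.876 CPM in untreated cells, 5.30 at day 1, 2.08 at day 3 with AREG and 1.31 at day 3. E2f8, which represses E2F targets, had 17.2 CPM at day 1 against 2.95 CPM in untreated cells. Of the 10 cohesin genes 6 were 2-fold higher at day 1 and 1 was 2-fold lower at day 3 against day 1, and Rad21, a core subunit, had 34.2, 78.7, 65.1 and 53.2 CPM.

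Of the subunits and regulators of the anaphase-promoting complex, 3 of 16 were 2-fold higher at day 1 and 1 of 16 was 2-fold lower at day 3 against day 1, both near the shares of all genes. Of 11 G1 cyclins and kinases 4 were 2-fold higher at day 1, Cdk6 the most, at 14.0 against 3.52 CPM, and 3 were 2-fold lower at day 3 against day 1. Ccnd2 was lower at day 1, at 50.6 against 63.4 CPM. Of 10 inhibitors of division 1, Btg1, was 2-fold higher at day 1, and 2, Cdkn1c and Cdkn2b, were 2-fold lower, beside 1.77% of all genes. The levels were 4.59 against 20.3 CPM for Cdkn1c and 13.0 against 36.1 CPM for Cdkn2b. Both were 2-fold higher at day 3 against day 1, beside 3.18% of all genes. Cdkn1a, which encodes p21, was at 80.9 CPM at day 3 with AREG against 118 CPM at day 3. None of the cohesin, complex, G1, inhibitor or transcription genes were past 2-fold with AREG.

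Over 22 units of class and library with at least 50 cells, the non-members whose log2(CPM + 1) went most closely with the summed members were H2ax and H2az1, both histone variants (Pearson r of 0.95 each), of 13583 genes considered. Alg8, Cenpm, Pmf1, Lsm2, Stmn1, Tk1, Magoh and H2ac4 followed, at 0.91 to 0.92. Among the members themselves r against the sum was 0.98 for Birc5 and 0.96 for Hmgb2, 0.62 for Ube2s and 0.18 for Pttg1. H2az1, Stmn1 and Tk1 were among the markers that named the proliferating-like class, so their closeness to the members was partly built in. These units share libraries and depth, so the coefficients are a description only.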

How the data were processed

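The deposited files hold raw counts, as UMIs per gene and cell barcode, which the authors made from PIPseq T20 3' libraries. The submitters' processing notes name the builds GRCm39 and mm39. No aligner or counter is named in what was used here. Barcodes were kept from 500 UMIs and 200 genes upwards, provided mitochondrial UMIs did not exceed 50%. Scrublet marked 5 untreated cells, 0 at day 1, 5 at day 3 with AREG and 15 at day 3, at most 0.188%, and is taken not to have worked, so doublets may remain. Cells were clustered on 2000 variable genes without the 56 members (40 components, 15 neighbours, Leiden resolution 1), which gave 34 clusters, named from marker lists by a scoring set after seeing the data. Names are therefore rebuilt and not the authors'. Levels are CPM of UMIs summed over cells, and log2 ratios use CPM + 1. Genes needed at least 10 UMIs over both libraries, and 2-fold is the call. For 27 repeated gene symbols the first entry was used.

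All 56 members could be named; full values go to the 3 highest of each role and to the 5 highest and 5 lowest ratios of each comparison, and for the other lists up to 3 genes at each end with at least 10 CPM in either library are named. A few others are named as partners of these. The members and lists were chosen with earlier results of these data known. The counting intervals and ratios were tested on simulated data. Alternatives tried were other filters, scalings, pseudocounts, thinning depths, thresholds, cluster resolutions and gene sets. Python 3.11.15, numpy 2.4.6, scipy 1.17.1, pandas 2.3.3, scikit-learn 1.9.0, scanpy 1.11.5, leidenalg 0.10.2, igraph 0.11.9 and matplotlib 3.10.9 were used.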

Additional observations from a re-analysis of the deposited data

How the results depend on the processing

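Of the values recomputed under other settings, 98 stayed within the counting interval or within 1.5 times the reported count, 34 moved and none reversed; the causes were not tested. At day 1 against untreated, the log2 ratio of the core-positive share, 1.57, was 1.30 with at least 1000 UMIs per cell, 1.34 with 1 core UMI as the call, 1.37 with all 56 members and 1.26 thinned to 1000 UMIs. The summed level, 0.78, was 0.76 with at least 1000 UMIs and with at most 20% mitochondrial UMIs. It was 0.82 with cells of high Scrublet score left out, 0.43 without abundant genes, 0.87 without Hmgb2 and 0.73 without the 10 cells with the most member UMIs. At day 3 against day 1, the share's ratio, -2.14, was -1.76 with 1 core UMI and -1.87 unthinned, and that of the sum, -1.29, was -1.26 with at most 20% mitochondrial UMIs and without abundant genes, -1.31 without Hmgb2 and -1.39 without the 10 cells. At day 3 with AREG against day 3, the share's ratio, 1.16, was 0.81 with 1 core UMI, 1.45 with 3 and 0.64 unthinned, and that of the sum, 0.69, was 0.82 without the 10 cells. With a pseudocount of 10 CPM the members past 2-fold were 5 instead of 20 at day 1, 11 instead of 46 at day 3 and 0 instead of 2 with AREG. The AREG count was 4 with at least 1000 UMIs and with at most 20% mitochondrial UMIs, 7 without abundant genes and 9 without the 10 cells. With members kept among the variable genes the pit-like ratio was 1.14 instead of 1.64, and the core-positive share of proliferating-like cells was 22.4% in the untreated library, 57.9% at day 3 with AREG and 40.7% at day 3. With a Leiden resolution of 0.5 that share was 29.1% of 103 cells at day 1 and 53.8% at day 3 with AREG. At a resolution of 2 it was 37.7% at day 3, whose interval overlapped that of the 48.1% with AREG. Leaving out cluster 2 was chosen after seeing the data and gave a pit-like ratio of 1.56. No paired analysis was possible because each condition was 1 library. With 1 library per condition, differences between mice, captures and conditions cannot be told apart. Leaving out a replicate was not possible.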
